A study of Mus musculus with 40 samples.

Results

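The mitochondrial carrier genes described here are the SLC25 family together with the uncoupling proteins and the subunits of the mitochondrial pyruvate carrier, followed by RNA-seq of mouse kidney after ischaemia-reperfusion injury (IRI). Members were all gene names of the form Slc25a plus a number, with Ucp1, Ucp2, Ucp3, Mpc1 and Mpc2, which gave 52 names of the 55862 in the time-course table. Ucp1 and Ucp2 were skipped because their Control counts stood under each other's name in the time-course and therapy tables. The remaining 50 carrier genes were analysed, and 45 of them passed the filter on low counts and were tested in the time-course and therapy tables. Slc25a2, Slc25a18, Slc25a31, Slc25a41 and Slc25a54 had almost no counts and were not tested there, and Slc25a2 alone of these was tested with the sham libraries.

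All libraries came from wild-type C57BL/6 mice, with total RNA of whole kidney and 4 libraries in each group. The time-course table held Control (no treatment in the labels) and IRI kidneys at 6, 24, 48 and 72 h after reperfusion. The therapy table held the same 4 Control libraries, untreated injury (AKI, labelled 6 h after reperfusion), and injured kidneys of mice given human mesenchymal stromal cells from bone marrow (BM-MSC) or umbilical cord (UC-MSC). The cells were injected directly after reperfusion, during the same anaesthesia, and the labels give no collection time for these kidneys. The sham table held unoperated mice (sham control) and mice operated on without IRI, taken 24 h later (sham 24 h). The age of the mice is not in the labels, and neither is whether the libraries of a group came from separate animals, so p-values measure only the spread between these libraries, which may be technical.

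Carriers of this family sit in the inner mitochondrial membrane, with a few in other membranes, and exchange nucleotides, phosphate, keto acids, amino acids, cofactors and metal ions between the cytosol and the matrix. Proximal tubule cells of the kidney are packed with mitochondria and depend on oxidative metabolism to reabsorb filtered solutes, so they rely on a steady import of ADP, phosphate, fatty acyl groups and pyruvate. The carriers are made in the cytosol and inserted into the inner membrane by the small TIM chaperones and the TIM22 complex.

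Promoter sequence from RefSeq (GRCm38.p6) was available for 39 of the 50 genes, as the 250 bases before the transcription start. The 4 windows below belong to genes on which the results turn: Slc25a24 and Slc25a25 rose early after injury, Slc25a36 and Slc25a13 were among those that fell furthest. They are written 5′ to 3′ on the strand of the gene, and capitals mark the motif found. The Slc25a25 window is chr2:32424067-32424316 (minus strand) at 1 of its 3 RefSeq starts, and its capitals are the cyclic AMP response element (CRE) TGACGTCA, 150 bases before the start. The bases after this start were found in no GENCODE transcript of Slc25a25, and the window of the start whose bases were found held none of the motifs. The Slc25a36 window is chr9:97111158-97111291 (minus strand), with the 116 bases nearest the start left out, and holds the same CRE 161 bases before the start. The Slc25a13 window is chr6:6217174-6217423 (minus strand), and its capitals are an AP-1 motif (TGANTCA) 130 bases before the start. The Slc25a24 window is chr3:109122899-109123148 (plus strand) and held none of the 6 motifs searched.
Slc25a24: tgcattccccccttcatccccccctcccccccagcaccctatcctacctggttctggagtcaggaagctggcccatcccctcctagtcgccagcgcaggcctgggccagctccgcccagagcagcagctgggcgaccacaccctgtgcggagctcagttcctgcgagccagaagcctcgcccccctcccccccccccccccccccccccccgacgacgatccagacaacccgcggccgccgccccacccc
Slc25a25: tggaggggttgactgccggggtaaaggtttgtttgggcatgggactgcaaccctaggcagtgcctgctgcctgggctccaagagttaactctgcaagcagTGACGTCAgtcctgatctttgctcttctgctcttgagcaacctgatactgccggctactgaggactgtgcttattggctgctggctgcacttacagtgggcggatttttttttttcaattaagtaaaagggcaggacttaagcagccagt
Slc25a36: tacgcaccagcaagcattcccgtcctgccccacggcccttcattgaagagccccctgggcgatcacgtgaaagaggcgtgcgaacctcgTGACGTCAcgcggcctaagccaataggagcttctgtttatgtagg
Slc25a13: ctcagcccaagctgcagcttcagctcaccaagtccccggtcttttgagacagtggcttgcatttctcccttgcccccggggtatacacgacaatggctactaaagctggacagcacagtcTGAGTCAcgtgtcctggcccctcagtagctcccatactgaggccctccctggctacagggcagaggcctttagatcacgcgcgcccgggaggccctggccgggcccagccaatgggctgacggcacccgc

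The motifs were searched on both strands, and no match overlapped another motif. The CRE stood in 2 of the 39 carrier genes with a window (5.13%), Slc25a36 and, at the start without a GENCODE transcript, Slc25a25, against 1.77% of the 27025 genes in the RefSeq table. The AP-1 motif stood in Slc25a11 and Slc25a13, 5.13% of the carriers against 7.82% of all genes, and the CCAAT box (CCAATCAG) in Slc25a42 and Slc25a53, against 4.43%. The motif of oestrogen-related receptors (TNAAGGTCA; 1.30% of all genes), that of NRF1 (0.877%) and that of ATF4 (TGATGNAA; 3.91%) were in none of these carrier windows. These are matches of letters in a short window and nothing more. The carriers that share the CRE moved in opposite directions at 6 h, as described below.

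Library totals ranged from 13313097 to 17533712 counts in the Control and IRI 6 h groups and from 4640921 to 5366202 at 72 h, so low genes were measured least precisely at the late times. Therapy libraries held 12949029 to 18475869 counts and sham libraries 26601247 to 37097091. The way repeated lines were laid out showed that Control and IRI 6 h had been joined from one block and 24, 48 and 72 h from another, and AKI from another block than the other therapy groups. For 24, 48 and 72 h against Control, and for AKI against the other therapy groups, block and group therefore cannot be told apart. Mitochondrial ribosomal RNA was 0.181 to 0.221% of counts in Control and 0.239 to 0.501% at IRI 6 h. It was 1.58 to 4.36% from 24 to 72 h and 0.947 to 2.40% in AKI. The kidney label was checked on markers of the first parts of the proximal tubule (Slc34a1, Slc5a2, Slc5a12, Lrp2, Cubn, Gatm): their summed level was 8613 to 10815 CPM in Control.

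Over the time course, most carriers that changed fell. At 6 h, 8 of the 45 tested carriers fell and 2 rose, against 8.51% of all genes lower and 10.4% higher. A fit of these 2 groups alone called 16 lower. No share of all genes is given for fits of 2 groups alone, here or below, so their counts cannot be set against these shares. At 24 h 21 fell (20.2% of all genes) and 6 rose (21.8%). At 48 h 27 fell (26.8%) and 4 rose (26.9%), and at 72 h 26 fell (29.6%) and 5 rose (26.7%). The median log2 fold change of the tested carriers was -0.35, -0.56, -0.98 and -0.85 at these times, while that of all genes tested was -0.07, 0.05, 0.01 and -0.04. Calls are those of edgeR's quasi-likelihood test with a Benjamini-Hochberg adjusted p under 0.05, over all 16653 genes.

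The summed level of the 50 carriers, in CPM (counts scaled to library size), was 7197 to 7863 in the Control libraries and 5820 to 6325 at 6 h. It was 3964 to 4629 at 24 h, 3337 to 3526 at 48 h and 3432 to 3752 at 72 h, so the groups from 6 h on lay below Control with no overlap. Markers of the early proximal tubule fell over the same libraries, to a summed 1444 to 4990 CPM at 6 h (2 of 6 genes lower), 871 to 1481 at 24 h, 350 to 1087 at 48 h and 259 to 351 at 72 h (6 of 6 lower at each of these). At 6 h other segments had moved further: markers of the last part of the proximal tubule (S3) went from 3662 to 4707 CPM in Control to 479 to 969 CPM (4 of 5 lower, median log2 fold change -3.49), and those of the thick ascending limb from 4605 to 5095 CPM to 1493 to 2376 CPM (3 of 4 lower). The part of these segments in the fall of the carriers was not tested. In whole-kidney RNA, fewer cells of a type and less RNA per cell cannot be told apart. Of the 45 carriers, 21 were lower at 24, 48 and 72 h alike and 8 of these also at 6 h, 4 were higher at 24, 48 and 72 h, and 10 were called at no time. No share of all genes is given for these patterns over several times, so the counts cannot be read as particular to the carriers.

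**Figure D1:**
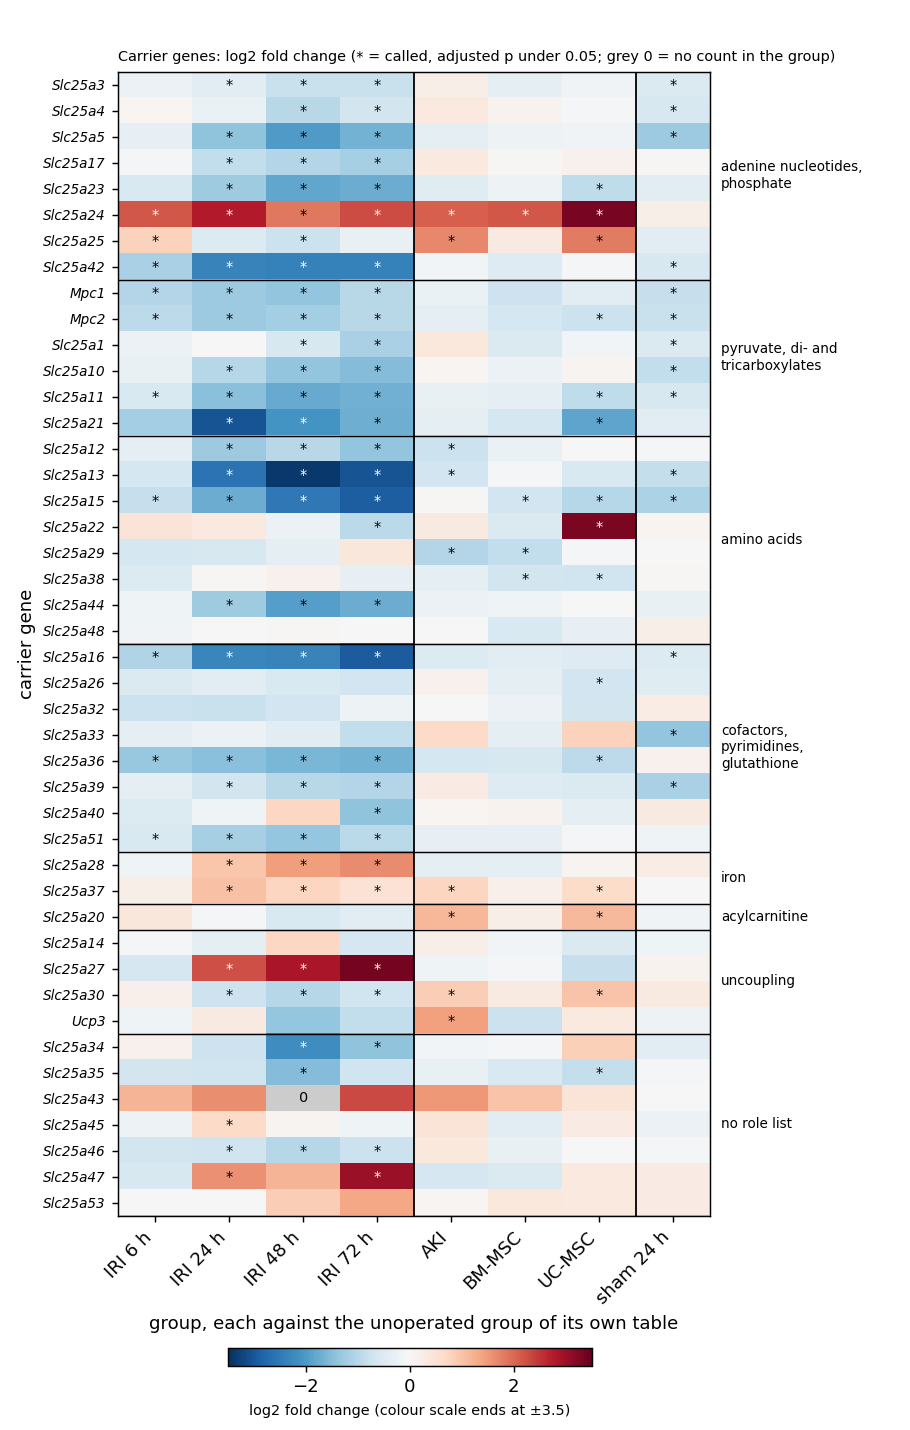
Log2 fold changes of 44 tested carrier genes (rows, by transport role) against the unoperated group of the same table, for IRI at 6, 24, 48 and 72 h, AKI, BM-MSC, UC-MSC and sham 24 h (columns). Red is higher and blue lower, an asterisk marks an adjusted p under 0.05, and grey marks Slc25a43 at 48 h, where all libraries had 0 counts. The pyruvate and carboxylate carriers are blue at the IRI times and in sham 24 h, and the iron carriers are red from 24 h.

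Among carriers of pyruvate, di- and tricarboxylates, 3 of 6 fell at 6 h, 5 at 24 h, and all 6 at 48 and 72 h, with a median log2 fold change of -0.72, -1.27, -1.38 and -1.33. Mpc1 and Mpc2 form the heterodimer that lets pyruvate into the matrix. Mpc2 stood at 407, 375, 347 and 342 CPM in Control and at 140, 195, 222 and 216 CPM at 6 h. Every 6 h library lay below every Control library, and the log2 fold change was -0.93 ± 0.15 (SE; adjusted p = 6.5e-05, edgeR). Mpc1 went from 53.7, 83.6, 85.0 and 76.6 CPM to 28.7, 36.4, 36.7 and 44.0 CPM at 6 h. Here too the groups did not overlap, and the log2 fold change was -1.04 ± 0.21 (adjusted p = 0.0012). From 24 to 72 h Mpc1 stayed between -1.38 and -0.97 and Mpc2 between -1.27 and -0.98, with no called step between 24, 48 and 72 h.

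Slc25a11, which exchanges oxoglutarate for malate in the malate-aspartate shuttle, fell at 6 h by 0.52 on the log2 scale and at 24 h by 1.47. Its Control libraries stood at 273, 273, 262 and 248 CPM and its 24 h libraries at 88.5, 90.2, 102 and 101 CPM. Slc25a10, the dicarboxylate carrier, was at 586, 679, 666 and 606 CPM in Control and at 385, 267, 292 and 316 CPM at 24 h, a log2 fold change of -1.01 ± 0.21 (adjusted p = 0.00036). For both genes the 24 h range lay wholly below Control. The largest fold at 24 h in this group was that of Slc25a21, the oxodicarboxylate carrier of lysine and tryptophan breakdown, which went from 29.2, 32.5, 31.2 and 27.8 CPM to 3.42, 3.45, 4.53 and 3.29 CPM (log2 fold change -3.03 ± 0.67, adjusted p = 0.00078). Its 48 h value, -2.10, rested partly on library 3 and was -2.77 without it. Slc25a1, the citrate exporter, was not called at 6 or 24 h (-0.21 and -0.02) and fell at 48 h (-0.57) and 72 h (-1.13 ± 0.18).

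Genes of the enzymes these carriers feed were also lower. Of 17 genes for pyruvate dehydrogenase, pyruvate carboxylase and the citrate cycle, 14 fell at 6 h and 17 at each later time. The shares of all genes lower were 8.51, 20.2, 26.8 and 29.6% at the 4 times. Among the 17 was Sdha, the flavoprotein of succinate dehydrogenase (-1.92 ± 0.17 at 24 h). At 24 h after sham surgery 15 of the 17 fell too (13.1% of all genes). The change at IRI 24 h was lower than that at sham 24 h for 8 (20.1%) and higher for 0 (24.8%). Of 4 tested genes of the malate-aspartate and glycerol phosphate shuttles, 1, 3, 4 and 4 fell at the 4 times, with Gpd1 at -1.63 ± 0.18 at 24 h. After sham surgery 5 of 6 tested shuttle genes fell. The change at IRI 24 h was lower than that at sham 24 h for 2 of 4 tested and higher for 1.

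The adenine nucleotide and phosphate carriers divided. Slc25a4 and Slc25a5 are ADP/ATP exchangers, and Slc25a3 brings in phosphate and copper. Slc25a5 stood at 1194, 1189, 1228 and 1104 CPM in Control and at 922, 954, 1008 and 998 CPM at 6 h, where the fall was not called (log2 fold change -0.28, adjusted p = 0.097). It was at 441, 399, 475 and 472 CPM at 24 h, at 288, 336, 272 and 291 CPM at 48 h and at 349, 418, 314 and 414 CPM at 72 h. No library from 24 h on reached the Control range, and the log2 fold changes were -1.40 ± 0.12, -1.99 ± 0.12 and -1.66 ± 0.12 (adjusted p = 2.5e-09, 7.3e-12 and 8.2e-11). The step from 24 to 48 h was itself called (-0.59, adjusted p = 0.0008).

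The fall of Slc25a4 was called from 48 h on. The gene was at 414, 406, 385 and 379 CPM in Control, at 303, 313, 369 and 356 CPM at 24 h and at 195, 201, 167 and 241 CPM at 48 h. The 24 h difference missed the threshold (-0.24, adjusted p = 0.13), and the 48 h fall was -0.98 ± 0.13 (adjusted p = 8.2e-07). Slc25a3 moved less, from 920, 1029, 1038 and 950 CPM in Control to 578, 631, 516 and 565 CPM at 48 h, without overlap (-0.78 ± 0.11). Slc25a42, which carries coenzyme A and adenosine nucleotides, fell at all 4 times, by 1.14, 2.33, 2.35 and 2.37 on the log2 scale. Its 6 h libraries read 42.9, 48.1, 48.6 and 48.5 CPM against 92.0, 112, 110 and 101 CPM in Control.

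The ATP-Mg/phosphate carriers, which set the adenine nucleotide pool of the matrix and are opened by calcium, took 3 courses. Slc25a24 was low in Control, at 11.8, 7.46, 7.20 and 8.59 CPM. It was at 59.7, 35.2, 30.3 and 34.1 CPM at 6 h, at 48.3, 49.2, 77.8 and 64.6 CPM at 24 h, at 32.4, 40.2, 34.5 and 18.1 CPM at 48 h and at 45.8, 28.5, 65.5 and 31.1 CPM at 72 h. Every injured library lay above every Control library, and this was the only carrier that rose at all 4 times, with log2 fold changes of 2.18 ± 0.30, 2.77 ± 0.30, 1.83 ± 0.30 and 2.28 ± 0.30 (adjusted p at most 1.8e-05). Slc25a25, its calcium-binding relative, rose at 6 h and fell at 48 h. It read 88.7, 111, 138 and 87.9 CPM in Control, 224, 135, 201 and 184 CPM at 6 h and 77.0, 41.6, 85.0 and 46.2 CPM at 48 h. The highest Control library, at 138 CPM, overlapped the lowest 6 h library, at 135 CPM, while all 48 h libraries lay below Control. The log2 fold changes were 0.81 ± 0.21 (adjusted p = 0.0067) and -0.76 ± 0.21 (adjusted p = 0.0037). Slc25a23 fell at 24, 48 and 72 h (-1.23, -1.81 and -1.72). Among markers of other cells, those of neutrophils were higher for 4, 3, 4 and 4 of 4 tested genes at the 4 times. Macrophage markers were higher for 4, 3, 2 and 3 of 7 and lower for 1, 1, 1 and 2. Fibroblast markers were higher for 4, 1, 4 and 4 of 6 and lower for 0, 1, 1 and 0. The part of these cells in the rise of Slc25a24 was not tested.

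**Figure D2:**
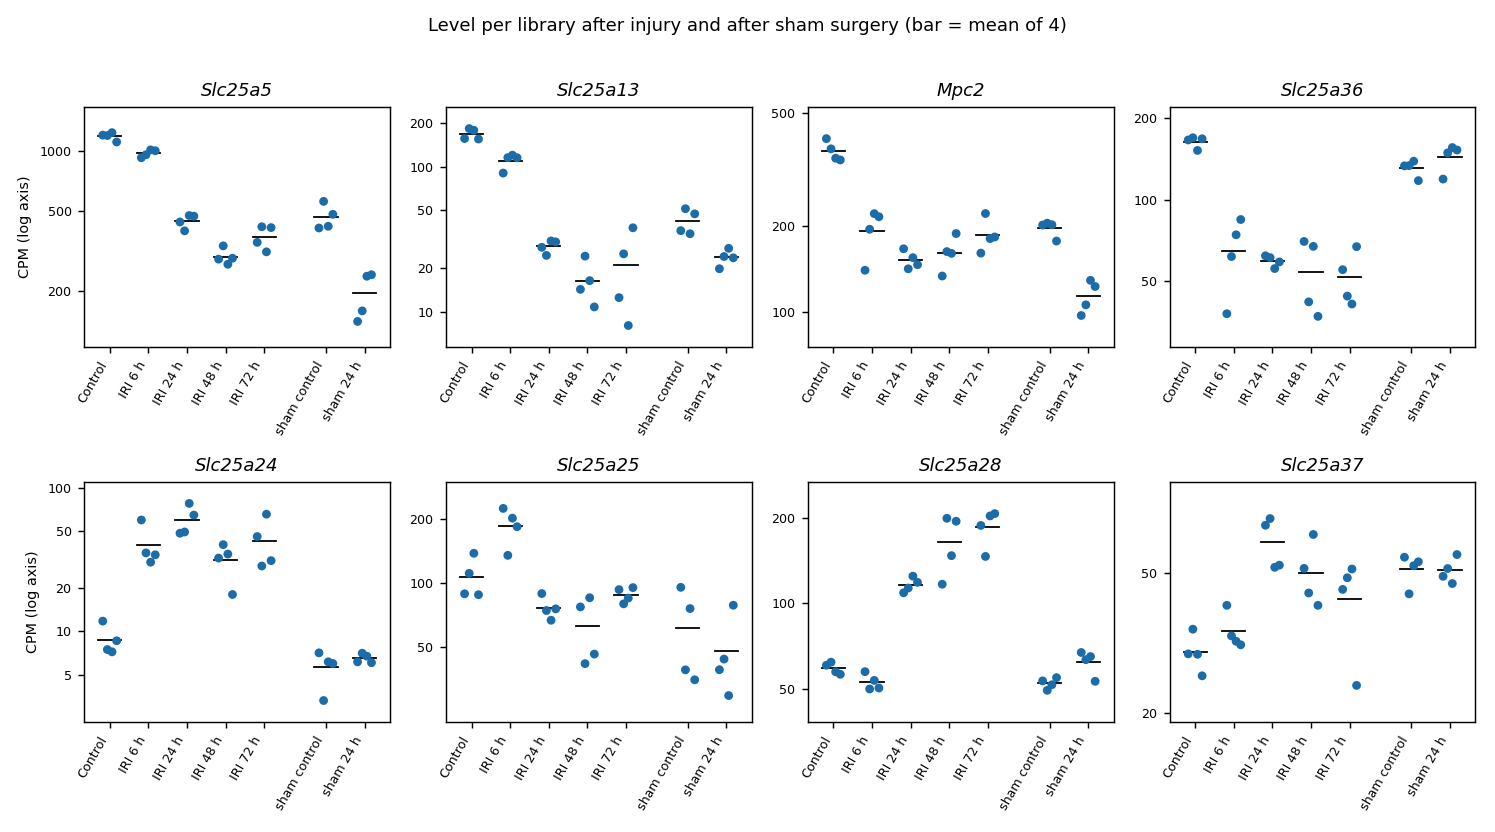
Level in CPM (log axis) of 8 carrier genes in each library of Control, IRI 6, 24, 48 and 72 h, and, separately normalised, sham control and sham 24 h; a bar marks the mean of 4 libraries. Slc25a5, Slc25a13, Mpc2 and Slc25a36 step down and Slc25a24, Slc25a28 and Slc25a37 stand above Control, while Slc25a25 is high at 6 h alone.

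Among the amino acid carriers, 1 of 8 tested fell at 6 h, near the 8.51% of all genes, and 4 at 24 h, against 20.2%. Slc25a12 and Slc25a13 export aspartate for glutamate and so complete the malate-aspartate shuttle. Slc25a13 read 157, 183, 179 and 155 CPM in Control and 90.5, 116, 120 and 115 CPM at 6 h. The 6 h libraries lay below Control, with the first lowest, and the difference was not called (-0.61 ± 0.28, adjusted p = 0.15). It then fell to 27.8, 24.4, 30.7 and 30.3 CPM at 24 h and 14.2, 24.1, 16.3 and 10.8 CPM at 48 h, with log2 fold changes of -2.57 ± 0.30 and -3.37 ± 0.32 (adjusted p = 3.5e-07 and 7.8e-09). Slc25a12 fell less (-1.26, -0.98 and -1.39 at 24, 48 and 72 h).

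Slc25a15, the ornithine carrier, was lower at every time. Its libraries were at 255, 272, 282 and 258 CPM in Control, 119, 158, 168 and 169 CPM at 6 h, and 39.9, 23.6, 42.9 and 38.6 CPM at 72 h. No injured library reached the Control range, and the log2 fold change went from -0.80 ± 0.21 at 6 h to -2.88 ± 0.23 at 72 h. Slc25a44, a carrier of branched-chain amino acids, fell at 24, 48 and 72 h (-1.24, -1.94 and -1.73). The glutamate carrier Slc25a22 was called only at 72 h (-0.94, adjusted p = 0.021), and that call was lost without library 4 of that group (adjusted p = 0.054). Slc25a29, Slc25a38 and Slc25a48 were called at none of the 4 times. Of 13 genes of mitochondrial amino acid enzymes, 8, 10, 10 and 12 fell, against 8.51, 20.2, 26.8 and 29.6% of all genes. At 24 h after sham surgery 9 of the 13 fell (13.1% of all genes). The change at IRI 24 h was lower than that at sham 24 h for 8 (20.1%) and higher for 0 (24.8%).

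Carriers of cofactors, pyrimidine nucleotides and glutathione had 3 of 9 genes lower at 6 h and 5 at 24 h, with a median log2 fold change of -0.52 and -0.64. Slc25a36, a pyrimidine nucleotide carrier, had the largest fall of any tested carrier at 6 h. It read 166, 169, 152 and 167 CPM in Control, 38.0, 61.7, 74.2 and 84.4 CPM at 6 h and 62.1, 61.1, 55.7 and 58.9 CPM at 24 h. The injured libraries lay far below Control, and the log2 fold changes at the 4 times were -1.34 ± 0.22, -1.46 ± 0.22, -1.59 ± 0.22 and -1.66 ± 0.22. Its relative Slc25a33 was called at no time.

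Slc25a16, linked to coenzyme A import, fell by 1.04, 2.28, 2.34 and 2.93 on the log2 scale, and its 24 h libraries read 43.8, 27.2, 39.2 and 42.2 CPM against 174, 197, 193 and 174 CPM in Control. Slc25a51, the NAD carrier, went from 254, 285, 301 and 260 CPM to 182, 180, 207 and 197 CPM at 6 h and 121, 110, 131 and 127 CPM at 24 h, with no overlap at either time (-0.52 ± 0.13 and -1.17 ± 0.13). Slc25a39, a glutathione carrier, fell from 24 h (-0.64, -0.97 and -1.04). Slc25a40, a relative of Slc25a39, fell at 72 h alone (-1.40 ± 0.43), and the value was -2.13 without library 4 of that group.

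The carriers that deliver iron for haem and iron-sulphur clusters rose. Slc25a37 (mitoferrin 1) read 29.5, 34.6, 29.4 and 25.6 CPM in Control and 68.2, 71.2, 51.8 and 52.6 CPM at 24 h, without overlap (1.03 ± 0.21, adjusted p = 0.00032). It was still higher at 48 h (0.75) and 72 h (0.50, adjusted p = 0.046), the last of which was lost without Control library 1, 3 or 4 or IRI 72 h library 1, 2 or 3 (0.36 to 0.48, adjusted p up to 0.17). Mitoferrin 1 is best known from red cell precursors. Erythroid markers summed to 489 to 668 CPM in Control and 279 to 1252 CPM at 24 h, with 0 of 5 tested called higher. At 48 h 3 of the 5 were lower and at 72 h 1, with 0 higher at either time. The part of red cells in the rise of Slc25a37 was not tested. Slc25a28 (mitoferrin 2) read 60.6, 62.2, 57.5 and 56.4 CPM in Control, 109, 113, 125 and 118 CPM at 24 h and 188, 146, 203 and 206 CPM at 72 h. Every library from 24 h on lay above Control, and the log2 fold changes at 24, 48 and 72 h were 0.97 ± 0.15, 1.47 ± 0.15 and 1.65 ± 0.15 (adjusted p = 5.3e-09 at 72 h). Of 11 genes that make haem or iron-sulphur clusters in mitochondria, 4, 5, 7 and 7 fell at the 4 times and 1 rose at each. The shares of all genes were 8.51, 20.2, 26.8 and 29.6% lower and 10.4, 21.8, 26.9 and 26.7% higher. Fech, which inserts the iron into haem, was at -1.33 ± 0.15 at 24 h. At 24 h after sham surgery 9 of the 11 fell (13.1% of all genes) and 1 rose (7.70%). The change at IRI 24 h was higher than that at sham 24 h for 5 (24.8%) and lower for 5 (20.1%).

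Of the uncoupling proteins, Slc25a27 (UCP4) rose from a low level, 1.21, 0.634, 0.830 and 3.28 CPM in Control, to 8.47, 7.29, 6.02 and 6.88 CPM at 24 h and 19.3, 12.7, 15.8 and 12.9 CPM at 72 h. The groups did not overlap, and the log2 fold changes were 2.26 ± 0.48 and 3.34 ± 0.49; without Control library 4, the highest of its group, they were 2.97 and 4.05. Slc25a30 fell at 24, 48 and 72 h (-0.73, -1.0 and -0.69). Slc25a14 and Ucp3 were called at no time. Slc25a20, the acylcarnitine carrier, was likewise called at no time (0.40, -0.04, -0.53 and -0.37). Of 5 tested genes of the carnitine shuttle 2, 4, 5 and 5 fell, against 8.51, 20.2, 26.8 and 29.6% of all genes. Cpt1a was at -1.36 ± 0.21 at 24 h. At 24 h after sham surgery 3 of 6 tested carnitine shuttle genes fell (13.1% of all genes). The change at IRI 24 h was lower than that at sham 24 h for 3 of 6 (20.1%) and higher for 0 (24.8%). Slc25a20 read 147 CPM in IRI 6 h library 1 and 69.0, 71.5 and 70.3 CPM in the others of that group.

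Among carriers outside the role lists, Slc25a47 rose at 24 h (1.61 ± 0.50) and 72 h (3.03 ± 0.53), from 2.10, 2.32, 2.28 and 2.10 CPM in Control to 23.2, 14.4, 8.81 and 26.1 CPM at 72 h. Slc25a34 fell at 48 h, from 37.1, 40.7, 45.4 and 37.2 CPM in Control to 15.8, 2.03, 9.23 and 8.16 CPM (-2.18 ± 0.36). Slc25a46, an outer membrane member tied to mitochondrial shape, fell at 24, 48 and 72 h (-0.70, -1.0 and -0.74), and its call at 24 h was lost without any library but IRI 24 h library 3 (adjusted p up to 0.11) and at 72 h without library 3 of that group (-0.61, adjusted p = 0.067). Slc25a45 rose at 24 h (0.68), lost without Control library 1 or 4 or IRI 24 h library 1 or 3 (adjusted p up to 0.12). Slc25a43 had 0 counts in all 4 libraries at 48 h, which with a floor of 3 counts over the group makes it at least 3.71-fold lower than in Control. Its level elsewhere was low, 0.208 to 0.634 CPM in Control.

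Between the late times fewer carriers moved. From 24 to 48 h, 9 of 45 fell (12.1% of all genes) and 1 rose (9.0%), with a median of -0.28 against -0.01 over all genes; a fit of the 2 groups alone called 4 lower. Of all genes called there, 42.7% were higher, and 54.4% under DESeq2's size factors. The fallen ones included Slc25a5, Slc25a4, Slc25a3, Slc25a15 and Slc25a24 (-0.94, adjusted p = 0.022), and the riser was Slc25a28 (0.50, adjusted p = 0.021). Of these 10 calls, 5 held when each library was left out in turn. Slc25a24 was lost without IRI 24 h library 3 or 4 or IRI 48 h library 4 (adjusted p up to 0.086), and Slc25a3 without IRI 24 h library 3 (-0.34, adjusted p = 0.052). Slc25a28 was lost without IRI 24 h library 1, 2 or 4 or IRI 48 h library 2 or 4 (adjusted p up to 0.08), Slc25a1 without IRI 24 h library 1 or 4 or IRI 48 h library 2 or 4 (up to 0.096), and Slc25a44 without IRI 24 h library 1, 3 or 4 or IRI 48 h library 1 or 2 (up to 0.085). From 48 to 72 h, 2 rose (2.04% of all genes) and 1 fell (3.63%), but a fit of these 2 groups alone called 0 in either direction. Slc25a40 fell (-2.13 ± 0.43; -2.82 without IRI 72 h library 4), a call lost in that fit (adjusted p = 0.27). Slc25a43 read 4.60, 0, 0 and 4.47 CPM at 72 h, so 2 of its libraries were at 0 like those of 48 h. Over the group it was at least 17.9-fold higher than the floor at 48 h, and at least 11.2-fold without IRI 72 h library 1. Slc25a47 rose by 1.84 (adjusted p = 0.44 in the fit of the 2 groups alone), a call lost without IRI 48 h library 1, 2 or 3 or IRI 72 h library 1 or 4 (1.52 to 1.88, adjusted p up to 0.068) and at 2.46 without IRI 48 h library 4.

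Surgery without ischaemia was compared with no surgery. At 24 h after sham surgery, 14 of 46 tested carriers fell (13.1% of all 17781 genes) and 0 rose (7.70%); 18 had an unadjusted p under 0.05. The median log2 fold change was -0.16, against 0.04 over all genes. The summed carrier level was 3508 to 4139 CPM in sham control and 2378 to 2893 CPM in sham 24 h, levels that cannot be set against those of the time-course table because the tables were normalised separately. Early proximal tubule markers went from 5135 to 7368 CPM in sham control to 2982 to 3904 CPM, with 5 of 6 lower. Erythroid markers went from 216 to 339 CPM to 348 to 1187 CPM (5 of 6 tested higher), and fat markers from 390 to 716 CPM to 266 to 528 CPM (4 of 9 tested lower). Mitochondrial ribosomal RNA was 0.273 to 0.488% of counts in sham control and 0.633 to 0.753% after surgery, and the 10 most abundant genes took 34.0 to 40.4% and 45.3 to 52.2%. The part of any of these in the carrier change was not tested.

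By role, the sham falls were 5 of 6 carriers of pyruvate and carboxylates (median -0.67), 4 of 8 of adenine nucleotides and phosphate, 3 of 9 of cofactors, pyrimidine nucleotides and glutathione, and 2 of 9 of amino acids. Slc25a5 read 412, 559, 420 and 482 CPM in sham control and 141, 159, 237 and 241 CPM after surgery, without overlap (-1.27 ± 0.16, adjusted p = 3.8e-05). Slc25a39 went from 362, 465, 350 and 410 CPM to 172, 162, 190 and 203 CPM (-1.13 ± 0.11), also without overlap. Mpc2 fell by 0.79 and Mpc1 by 0.80 on the log2 scale, Slc25a10 by 0.86 and Slc25a15 by 1.10. Slc25a33 fell here (-1.38 ± 0.26), though it was called at no IRI time.

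The change at IRI 24 h was then set against the change at sham 24 h, each relative to its own unoperated group, in a single fit of 18563 genes. The difference was called for 26 of 46 carriers, 17 with IRI lower (20.1% of all genes) and 9 with IRI higher (24.8%), and the median difference was -0.24 against 0.12 over all genes. Injury and sham libraries stand in different tables, so a difference between tables that does not touch both their groups alike cannot be told apart from that of IRI.

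For 4 carriers that fell in both settings, Slc25a5, Slc25a3, Slc25a10 and Mpc1, no difference was called. That of Slc25a5 was -0.04 ± 0.20 (adjusted p = 0.89) and that of Slc25a10 -0.05 ± 0.19 (adjusted p = 0.85), both on the log2 scale. A p that misses the threshold does not show that the changes were equal. A further 6 fell in both and lower still after IRI: Slc25a13 (difference -1.64 ± 0.18), Slc25a16 (-1.70), Slc25a42 (-1.70), Slc25a11 (-0.82), Slc25a15 (-0.53) and Mpc2 (-0.39). That of Slc25a15 was lost without IRI 24 h library 2, sham control library 1 or 3 or sham 24 h library 4 (-0.47 to -0.41, adjusted p up to 0.061). That of Mpc2 was lost without Control library 1 or 2, IRI 24 h library 2 or 4, sham control library 4 or sham 24 h library 3 or 4 (-0.38 to -0.29, adjusted p up to 0.11).

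Of the carriers lower after IRI and not called in sham, 10 had a called difference. Slc25a36 read 133, 133, 138 and 117 CPM in sham control and 119, 149, 155 and 152 CPM in sham 24 h (0.14 ± 0.11, adjusted p = 0.42), overlapping, and its difference was -1.51 ± 0.13 (adjusted p = 4.9e-09). Slc25a21 (-2.54), Slc25a12 (-1.12) and Slc25a51 (-0.92) were of the same kind. All 6 carriers that rose at IRI 24 h differed too, led by Slc25a24 (2.67 ± 0.29), Slc25a27 (2.21; 2.94 without Control library 4) and Slc25a47 (1.42), with Slc25a37 at 1.13, Slc25a45 at 0.97 and Slc25a28 at 0.82. Fat markers summed to 422 to 628 CPM in Control and 1592 to 3215 CPM at IRI 24 h. Of 9 tested, 2 were called higher against Control and 0 lower. In the difference from sham 6 of 9 were higher (24.8% of all genes), where 4 of 9 had fallen in sham. The part of these markers in the carrier differences was not tested. Slc25a24 was at 7.08, 3.30, 6.13 and 5.97 CPM in sham control and 6.13, 7.04, 6.71 and 6.05 CPM after sham surgery. In the other direction, Slc25a39 fell in both and less after IRI (difference 0.58), and Slc25a1 and Slc25a33 fell in sham alone (differences 0.59 and 1.27).

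**Figure D3:**
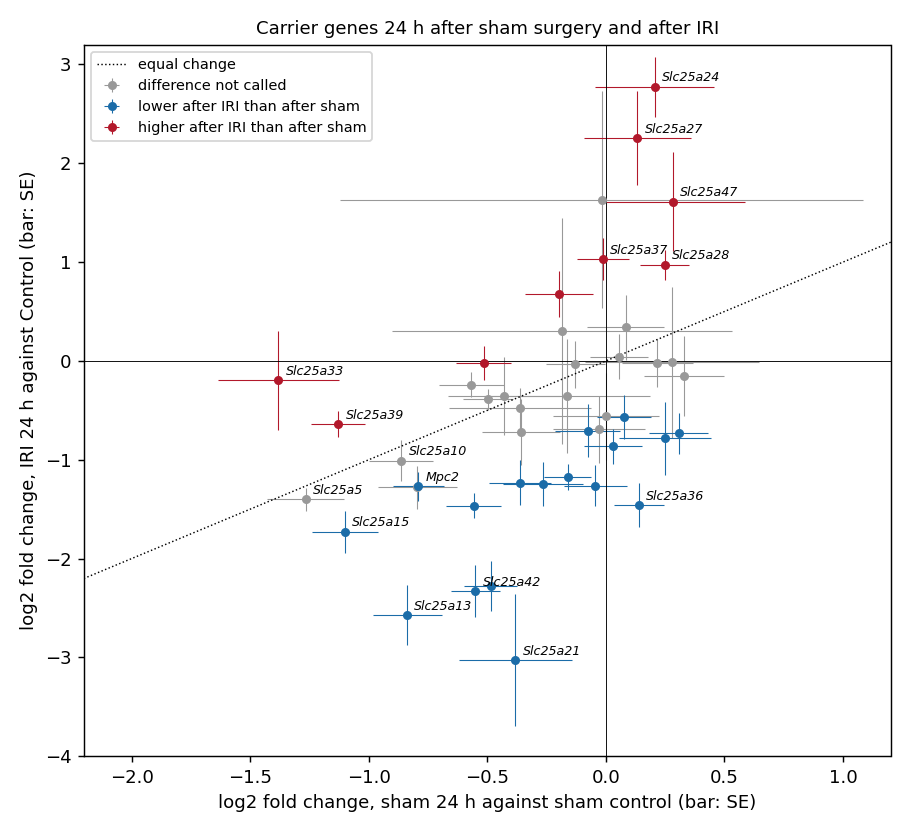
Log2 fold change at sham 24 h against sham control (x) and at IRI 24 h against Control (y) for the tested carriers, with standard errors; colour marks the direction of a called difference and the dotted line equal change. Slc25a5, Slc25a3, Slc25a10 and Mpc1 have no called difference, Slc25a24 and Slc25a27 stand high, and Slc25a21, Slc25a13, Slc25a16 and Slc25a42 stand low.

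Of 13 genes of the carrier import machinery (TOM receptors, small TIM chaperones and the TIM22 complex), 10 fell after sham surgery (13.1% of all genes). At IRI 24 h 3 fell and 3 rose, shares near those of all genes (20.2% and 21.8%). The difference was higher after IRI for 9 of the 13 (24.8% of all genes) and lower for 1 (20.1%). Timm29, a TIM22 subunit, fell at IRI 24 h (-1.43 ± 0.24) and Tomm40, the outer membrane pore, rose (1.20 ± 0.15). Of the 3 VDAC channels of the outer membrane, 3 fell in sham and 1 at IRI 24 h, Vdac1 (-1.65 ± 0.15). Of 19 other inner membrane transporters, 9 fell (20.2% of all genes) and 3 rose (21.8%) at IRI 24 h. Mcub, an inhibitory subunit of the calcium uniporter, was at 2.13 ± 0.55. In sham 8 of the 19 fell (13.1%) and 2 rose (7.70%), and the difference was higher after IRI for 4 (24.8%) and lower for 5 (20.1%).

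In the therapy table, 36 of 45 tested carriers were not called between untreated injury (AKI) and Control. Of the rest, 6 rose (20.0% of 16623 genes) and 3 fell (15.1%), with a median of 0.00 against 0.06 over all genes. AKI and IRI 6 h carry the same time and library names in the labels but hold different counts. They share the Control libraries, and their values are given side by side: 8 carriers were lower at IRI 6 h, and none of those 8 was called lower in AKI, where Slc25a36 was at -0.60 (adjusted p = 0.083) and Mpc1 at -0.24. Their summed carrier level was 6851 to 7866 CPM in AKI and 6727 to 7257 CPM in Control.

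Slc25a24 rose in AKI as it did at IRI 6 h, from 10.98, 6.89, 6.57 and 8.03 CPM to 42.7, 36.9, 42.2 and 17.5 CPM (2.10 ± 0.37, adjusted p = 0.00054). Slc25a25 read 82.7, 102, 126 and 82.1 CPM in Control and 296, 281, 348 and 325 CPM in AKI, with no overlap (1.67 ± 0.45, adjusted p = 0.0088). Slc25a20, through which acylcarnitines enter the matrix, read 68.9, 61.7, 64.8 and 55.5 CPM in Control and 93.5, 158, 131 and 177 CPM in AKI (1.16 ± 0.24, adjusted p = 0.0017), again without overlap. The other risers were Slc25a37 (0.75), Slc25a30 (0.85) and Ucp3 (1.45 ± 0.41, adjusted p = 0.012); the call of Slc25a30 was lost without Control library 1, 2 or 4 (0.83 to 0.85, adjusted p up to 0.058), and that of Ucp3 without AKI library 4 (1.04, adjusted p = 0.054).

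Ucp3 is chiefly an uncoupling protein of muscle and brown fat, and it was at 2.67, 2.01, 2.02 and 3.53 CPM in Control and 6.39, 5.71, 3.72 and 12.1 CPM in AKI. Fat markers moved with this group: their summed level was 385 to 585 CPM in Control and 1205 to 2091 CPM in AKI, with 9 of 10 genes higher, and their part in the rises was not tested. None of the 10 was at 0 throughout AKI. S3 markers were at 656 to 1587 CPM in AKI against 3414 to 4295 CPM in Control (4 of 5 lower, median log2 fold change -2.88). Thick ascending limb (2 of 4), erythroid (4 of 5 tested), endothelial (3 of 4 tested) and fibroblast markers (3 of 6) were also lower. Early proximal tubule markers were lower for 1 of 6, and macrophage markers higher for 3 of 7 and lower for 1. The part of these in the AKI values was not tested. The fallen carriers were Slc25a12 (-0.76), Slc25a13 (-0.68; lost without Control library 2 or 3 or AKI library 2, 3 or 4, adjusted p up to 0.069) and Slc25a29 (-1.02). Slc25a12 read 90.9, 100, 92.3 and 85.0 CPM in Control and 63.3, 56.7, 53.7 and 43.8 CPM in AKI, without overlap.

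In injured kidneys given BM-MSC, 1 carrier rose against Control and 4 fell in the fit of all groups. A fit of these 2 groups alone called 2 higher and 16 lower, and the shares below are not those of that fit. Slc25a24 rose (6.56% of all genes higher), at 32.8, 22.1, 26.0 and 65.5 CPM against at most 10.98 CPM in Control (2.17 ± 0.37, adjusted p = 0.0029), and this call held when each library was left out. The 4 that fell (2.36% of all genes) were each lost when single libraries were left out. Slc25a29 (-0.87) and Slc25a38 (-0.64) were lost without any 1 of the 8 libraries (adjusted p up to 0.14 and 0.17), and Slc25a15 (-0.68) without any but BM-MSC library 2 (up to 0.14). The median was -0.31 against 0.04 over all genes. BM-MSC library 4 stood low in the summed carrier level, at 4657 CPM against a group median of 6112 CPM. S3 markers were at 791 to 1787 CPM against 3414 to 4295 CPM in Control (3 of 5 lower), and neutrophil markers (5 of 5 tested), macrophage markers (5 of 7) and fibroblast markers (4 of 6) were higher; their part was not tested.

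Against AKI, 9 carriers were lower with BM-MSC (17.1% of all genes) and 2 higher (16.3%), with a median of -0.30 against 0.00. Slc25a20 read 72.3, 64.5, 78.2 and 73.9 CPM, all below AKI (-0.96 ± 0.24, adjusted p = 0.0064). Slc25a25 read 147, 75.4, 147 and 116 CPM, also below every AKI library (-1.37 ± 0.44, adjusted p = 0.026), although its call was lost without AKI library 3 or 4 or BM-MSC library 2 or 4 (-1.34 to -1.18, adjusted p up to 0.08). Ucp3 was at 1.29, 0.663, 1.75 and 2.33 CPM, below AKI without overlap (-2.19 ± 0.42, adjusted p = 0.001). Slc25a12 was higher than in AKI, at 81.7, 86.3, 76.5 and 68.0 CPM (0.52 ± 0.16, adjusted p = 0.017), a call lost without AKI library 4 (0.44, adjusted p = 0.058) or BM-MSC library 2 (0.48, adjusted p = 0.051). Of the other called carriers, Slc25a1 (-0.88), Slc25a45 (-0.85), Slc25a46 (-0.62) and Slc25a15 (-0.70) held without each library. Slc25a13 (0.62) was lost without any 1 of AKI libraries 2 to 4 or BM-MSC libraries 1 to 3 (adjusted p up to 0.11), and Slc25a37 (-0.57) without library 3 of AKI or BM-MSC (up to 0.059).

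Fat markers were lower with BM-MSC than in AKI for 10 of 10 genes, at a summed 232 to 459 CPM. Mitochondrial ribosomal RNA was 0.153 to 0.264% of counts against 0.947 to 2.40% in AKI. Fibroblast markers were higher for 5 of 6 genes and lower for 1. Endothelial (3 of 4 tested), neutrophil (3 of 5), erythroid (3 of 5), macrophage (3 of 7) and thick ascending limb markers (2 of 4) were also higher. Distal tubule and collecting duct markers were lower for 3 of 6. The part of any of these in the carrier differences was not tested. With IRI 6 h as the injured group instead of AKI, 0 carriers were called in either direction between BM-MSC and injury, and the median was -0.03. No share or median over all genes is given for that fit, so these values cannot be read as particular to the carriers. Of 13 genes of the import machinery 7 were lower with BM-MSC than in AKI (17.1% of all genes), among them Timm9 (-1.47 ± 0.23) and Timm8a1 (-1.45 ± 0.18), and so were all 3 VDAC genes. With UC-MSC the same counts, 7 of 13 and 3 of 3, were lower than in AKI (20.2% of all genes). Against Control, 5 of the 13 and 2 of the 3 VDAC genes were higher in AKI (20.0% of all genes). With BM-MSC 0 of either list were called against Control.

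In injured kidneys given UC-MSC, 6 carriers rose against Control (20.4% of all genes) and 10 fell (16.7%), with a median of -0.06 against 0.09. Slc25a24 was at 77.2, 107, 92.6 and 45.1 CPM, above every library of Control and AKI (3.31 ± 0.38 against Control, adjusted p = 2.7e-05; 1.21 ± 0.35 against AKI, adjusted p = 0.012). Slc25a21 read 10.6, 7.01, 3.52 and 9.92 CPM against 27.3, 30.0, 28.5 and 26.0 CPM in Control (-1.85 ± 0.27). Its libraries lay below Control and below AKI without overlap. Slc25a20 was at 74.3, 151, 129 and 201 CPM, above Control (1.14 ± 0.24), and differed from AKI by -0.01 ± 0.24. Mpc2 fell (-0.75), a call lost without Control library 1 or UC-MSC library 2 or 3 (-0.69 to -0.59, adjusted p up to 0.072).

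UC-MSC library 4 stood apart in several carriers, with a summed level of 10518 CPM against 4658, 6203 and 5419 CPM in libraries 1 to 3. Slc25a22, a glutamate carrier, read 25.7, 157, 107 and 975 CPM, against 30.9 to 34.3 CPM in Control and 37.9 to 41.9 CPM in AKI. Library 1 lay below both ranges and the other 3 above. The log2 fold change against Control was 3.28 ± 0.70 (adjusted p = 0.0021) with that library and 1.57 (adjusted p = 0.0033) without it. Slc25a25 read 108, 281, 180 and 826 CPM, and its change against Control went from 1.83 to 0.95 (adjusted p = 0.014) without library 4. Erythroid markers were at 908 to 3483 CPM in UC-MSC, highest in library 4, and at 452 to 617 CPM in Control, with 4 of the 5 tested higher. Adrenal markers were at 38.3, 756, 2493 and 107 CPM in UC-MSC libraries 1 to 4, and early proximal tubule markers at 1096 to 3813 CPM against 8028 to 9867 CPM in Control (6 of 6 lower). The part of these in the carrier changes was not tested.

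Against AKI, 11 carriers were lower with UC-MSC (20.2% of all genes) and 5 higher (20.3%), with a median of -0.18 against -0.02. Slc25a15 was at 99.5, 154, 99.9 and 142 CPM, below 218 to 317 CPM in AKI (-1.02 ± 0.20, adjusted p = 0.00091), and Slc25a12 was higher (0.75 ± 0.16, adjusted p = 0.0015). Slc25a26, the S-adenosylmethionine carrier, was lower (-0.83 ± 0.19), and so was Slc25a11 (-0.63 ± 0.16). The calls of 6 were lost when single libraries were left out. Slc25a4 (-0.38) was lost without AKI library 2 or UC-MSC library 2 or 3 (adjusted p up to 0.088), Slc25a35 (-0.59) without AKI library 4 or UC-MSC library 1, 2 or 3 (up to 0.17), and Ucp3 (-1.11) without AKI library 4 (-0.70, adjusted p = 0.17) or UC-MSC library 1, 2 or 4. Slc25a34 (0.93) was lost without any AKI library and was at 0.31 (adjusted p = 0.28) without UC-MSC library 4. Slc25a32 (-0.65) was lost without AKI library 1 (-0.21, adjusted p = 0.19) or any UC-MSC library, and Slc25a39 (-0.78) without AKI library 2, 3 or 4 or UC-MSC library 1, 2 or 3 (up to 0.15). A fit of the 2 groups alone called 5 lower and 3 higher. With IRI 6 h in place of AKI, 4 carriers were called lower and the median was 0.12. No share or median over all genes is given for that fit either. Erythroid markers were at 908 to 3483 CPM with UC-MSC and 94.7 to 188 CPM in AKI, with 5 of 5 tested higher. Neutrophil (5 of 5 tested), endothelial (4 of 4) and fibroblast markers (5 of 6) were also higher, and fat markers lower for 4 of 10 genes. Mitochondrial ribosomal RNA was 0.251 to 0.452% of counts against 0.947 to 2.40% in AKI. The part of these in the carrier differences was not tested.

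The 2 cell sources were also compared directly. Of 45 carriers, 7 were higher with UC-MSC than with BM-MSC (10.0% of all genes) and 4 lower (10.4%), with a median of 0.13 against 0.01; a fit of these groups alone called 4 higher. Slc25a20 was higher (0.94 ± 0.24, adjusted p = 0.012), with library 1 of UC-MSC inside the BM-MSC range and the other 3 above it. Slc25a22 was higher (3.79 ± 0.72; 2.08 without UC-MSC library 4), and Slc25a21 lower (-1.22 ± 0.27, adjusted p = 0.0058). The calls of 7 of the 11 were lost when single libraries were left out. Slc25a25 (1.52) was at 0.64 (adjusted p = 0.12) without UC-MSC library 4 and was also lost without BM-MSC library 2. Slc25a33 (1.11) was at 0.37 (adjusted p = 0.28) without UC-MSC library 4 and was also lost without BM-MSC library 1, 3 or 4. Slc25a24 (1.14) was lost without BM-MSC library 1, 2 or 3 or UC-MSC library 2 or 3 (adjusted p up to 0.096), and Slc25a29 (0.81) without any BM-MSC library or UC-MSC library 3 or 4 (up to 0.12). Slc25a11 (-0.58) was lost without BM-MSC library 3 or UC-MSC library 2 or 3 (up to 0.061), and Slc25a23 (-0.72) without UC-MSC library 3 (adjusted p = 0.051). Fat markers were higher with UC-MSC than with BM-MSC for 6 of 10 genes, adrenal markers for 5 of 5 and erythroid markers for 4 of 5 tested (median log2 fold change 1.94). Early proximal tubule markers were lower for 4 of 6 (median -1.60, at 1096 to 3813 CPM against 3289 to 8049 CPM). The part of these was not tested.

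**Figure D4:**
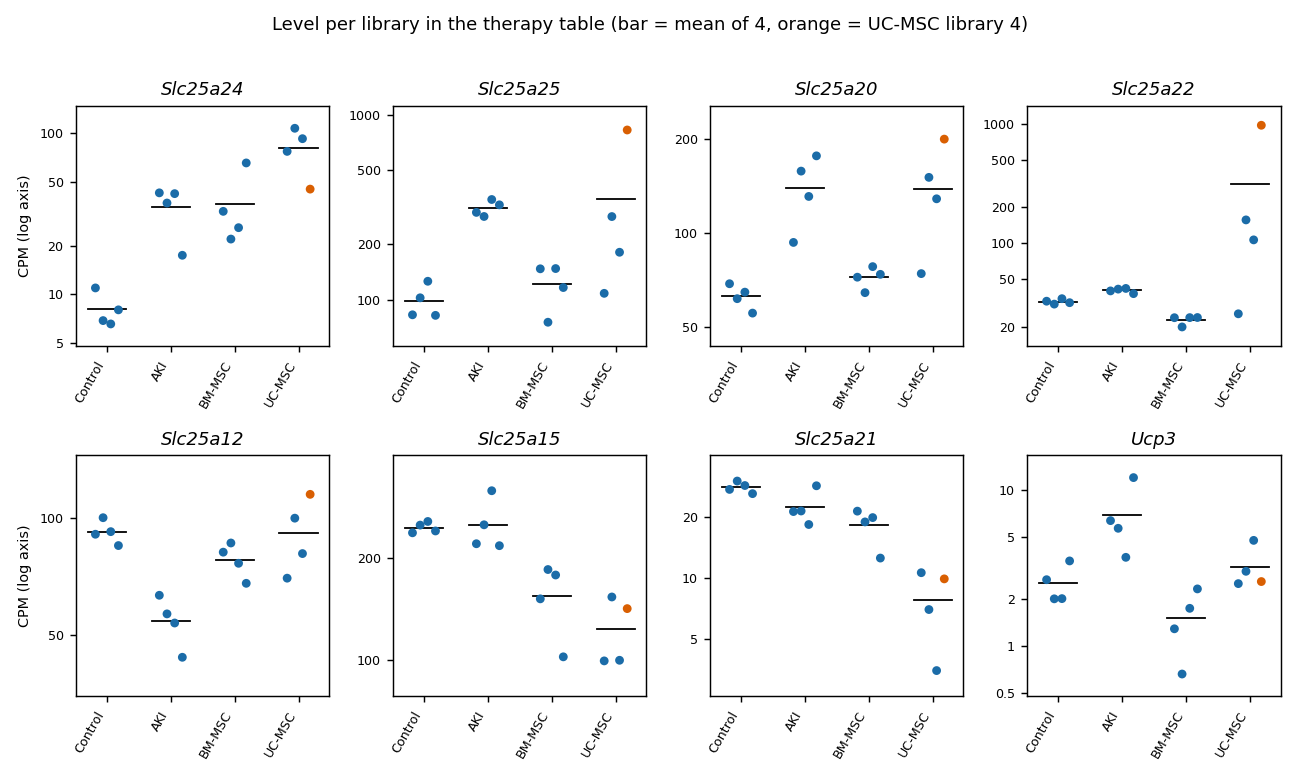
Level in CPM (log axis) of 8 carrier genes in each library of Control, AKI, BM-MSC and UC-MSC; a bar marks the mean of 4 libraries and orange marks UC-MSC library 4. Slc25a24 is above Control in all 3 injured groups, Slc25a20 and Ucp3 are higher in AKI than with BM-MSC, and Slc25a22 spreads from 25.7 to 975 CPM with UC-MSC.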

How the data were processed

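Whole-kidney RNA of 40 libraries was read from 3 deposited tables of raw counts per gene name. Per the submitters' processing notes, the authors used GRCm39 (mm39), HTSeq and DESeq2. The aligner and the strand setting are not given in the sources used here. The deposited counts were whole numbers. The 40 libraries filled 44 columns, because the time-course and therapy tables share 4 Control libraries, and 0 columns of per-sample values were left unused. In those tables some names stood on repeated lines and were counted once. Neither fit used 85 names, among them 74 (Ucp1 and Ucp2 included) whose Control counts were unequal in the 2 tables.

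All groups of a table entered 1 quasi-likelihood fit (edgeR 4.0.16, limma 3.58.1, R 4.3.3) after TMM scaling and filterByExpr. The filter kept 16653, 16623 and 17781 genes. A gene was called at a two-sided Benjamini-Hochberg adjusted p under 0.05 over all genes of its fit. The difference between IRI 24 h and sham 24 h was fitted on both tables together (18563 genes). Levels are in CPM on the TMM scale. A standard error is the log2 fold change over the root of its F statistic. The fits were tested on simulated data with 200 changed genes. A group at 0 was given a floor of 3 counts. Alternatives were DESeq2 1.42.0, its size factors in edgeR, no filter, the groups compared alone, the replicate number as a block (in the sham table, that of the column), dropping 12 abundant names of the 72 h libraries, IRI 6 h in place of AKI, and leaving out each library.

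Values in every library are given for 11 carriers of central roles and, per comparison, for up to 6 rises and 6 falls of largest size at a mean log2 CPM no lower than 1, other carriers by fold change, and genes of the other lists where called, up to 4 per list. The members and lists were chosen with earlier results of these data known. Values of 1 carrier and 1 enzyme gene are not reported here, although both stay in the counts and medians of calls. Library totals were 4640921 to 37097091 counts. Promoter windows are from RefSeq (GRCm38.p6), matched by symbol; positions in the authors' build were not used. Motifs were searched and figures drawn in Python 3.11.15 (matplotlib 3.10.9).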

Additional observations from a re-analysis of the deposited data

Results flagged for a closer look

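In each group of 4 libraries, the highest or lowest library was marked where its gap to the nearest other library passed Dixon's critical share of the group's range. This marked 29 of 360 groups over 36 carriers, and chance alone marks about 1 in 20.

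IRI 6 h library 1 held 8 of the 29. It was the highest of its group for Slc25a12 (96.5 CPM), Slc25a20 (147 CPM), Slc25a22 (105 CPM) and Slc25a24 (59.7 CPM), and the lowest for Slc25a13 (90.5 CPM), Slc25a39 (595 CPM), Slc25a40 (5.48 CPM) and Slc25a42 (42.9 CPM). At later times the marked libraries were library 3 at 24 h for Slc25a21 (4.53 CPM), library 1 at 48 h for Slc25a12 (60.4 CPM) and Slc25a22 (35.8 CPM), library 4 at 72 h for Slc25a16 (35.8 CPM) and Slc25a20 (35.1 CPM), and library 1 at 72 h for Slc25a29 (17.3 CPM) and Ucp3 (6.13 CPM).

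UC-MSC library 4 was the highest of its group for Slc25a22 (975 CPM), Slc25a39 (1016 CPM), Slc25a33 (58.8 CPM), Slc25a29 (10.5 CPM) and Mpc1 (99.2 CPM). AKI library 1 was the highest for Slc25a13 (146 CPM), Slc25a16 (163 CPM), Slc25a51 (297 CPM) and Slc25a40 (16.0 CPM). BM-MSC library 4 was the lowest for Slc25a5 (743 CPM) and the highest for Slc25a30 (139 CPM), and BM-MSC library 2 the lowest for Slc25a22 (19.9 CPM). In the sham table, Mpc2 was lowest in sham control library 4 (177 CPM) and Slc25a27 in sham 24 h library 2 (5.11 CPM).

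The skipped names were not compared, since their Control counts stood under each other's name in the time-course and therapy tables. Some of their lines held signal above the line's own unoperated group. Under Ucp1 in the time-course table the median was 160 CPM in Control and 417, 544, 443 and 402 CPM at 6, 24, 48 and 72 h. Under Ucp1 in the therapy table it was 32.3 CPM in Control and 234 CPM in AKI. Under Ucp2 in the therapy table it was 149 CPM in Control, 371 CPM in AKI, 354 CPM with BM-MSC and 1140 CPM with UC-MSC. Under Ucp2 in the sham table it was 126 CPM in sham control and 198 CPM at sham 24 h. Other lines were lower than their unoperated group. Under Ucp2 in the time-course table the median was 34.6 CPM in Control and 34.2, 5.12, 3.46 and 7.7 CPM at the 4 times, and under Ucp1 in the therapy table it was 11.8 CPM with BM-MSC and 10.5 CPM with UC-MSC. Which gene each line of the first 2 tables belongs to was not tested.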

How the results depend on the processing

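Counts of called carriers and their median log2 fold change kept their direction and stayed within 1.5 times, or within the spread between libraries, under the other settings except as follows. Fitting only the groups compared gave 16 lower and a median of -0.25 at 6 h, 4 lower from 24 to 48 h, 0 higher and 0 lower from 48 to 72 h, 2 higher and 16 lower for BM-MSC against Control, 1 higher for BM-MSC against AKI, 3 higher and 5 lower for UC-MSC against AKI, and 4 higher for UC-MSC against BM-MSC. DESeq2 gave medians of -0.87 at 48 h, -0.72 at 72 h and -0.18 from 24 to 48 h, and 5 higher and 2 lower from 48 to 72 h. DESeq2's size factors moved the median of all genes by 0.10 at 48 h and 0.13 at 72 h and gave carrier medians of -0.87, -0.71 and -0.18. Without the filter, the medians were -1.08 at 48 h and -0.95 at 72 h, with 0 higher from 24 to 48 h, 1 higher from 48 to 72 h, 2 lower for BM-MSC against Control and 6 lower for UC-MSC against AKI. IRI 6 h in place of AKI gave 0 higher, 0 lower and a median of -0.033 for BM-MSC, and 4 lower and a median of 0.12 for UC-MSC. It turned Slc25a12 (-3.66e-05), Slc25a15 (0.021) and Slc25a46 (0.28) against BM-MSC and Slc25a32 (0.00326), Slc25a46 (0.56) and Ucp3 (0.39) against UC-MSC. Without single libraries, Slc25a32 in AKI against Control ranged from -0.48 (without AKI library 1) to 0.14, and Slc25a33 in UC-MSC against AKI from -0.60 (without UC-MSC library 4) to 0.37. The causes were not tested. Shares of all genes are not given for fits of 2 groups alone or with IRI 6 h in place of AKI.

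Replicate numbers did not pair the libraries: same-numbered libraries deviated together with correlations of -0.4951 to 0.2241. With the replicate block, the median at 72 h was -0.94, and the counts were 1 higher from 48 to 72 h, 1 lower for BM-MSC against Control and 4 higher for UC-MSC against BM-MSC. The sham columns are numbered but could not each be matched to a labelled sample. With a replicate block by column number, chosen after seeing the data, 0 rose and 14 fell in sham (correlations of -0.0469 to -0.0081), and the IRI and sham difference had 9 higher and 16 lower, with Mpc2 lost (-0.38, adjusted p = 0.059).

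Leaving out each library in turn, IRI 6 h against Control gave 2 higher, 8 lower and a median of -0.38 to -0.30. IRI 24 h against Control gave 5 to 6 higher, 19 to 22 lower and a median of -0.67 to -0.54, and IRI 48 h against Control gave 4 to 6 higher, 27 to 29 lower and a median of -1.02 to -0.95. IRI 72 h against Control gave 4 to 5 higher, 24 to 29 lower and a median of -1.02 to -0.80, and IRI 48 h against IRI 24 h gave 0 to 1 higher, 6 to 11 lower and a median of -0.35 to -0.25. IRI 72 h against IRI 48 h gave 1 to 4 higher, 1 to 2 lower and a median of 0.091 to 0.22, and AKI against Control gave 5 to 8 higher, 2 to 7 lower and a median of -0.13 to 0.05. BM-MSC against Control gave 1 higher, 0 to 2 lower and a median of -0.34 to -0.23, and UC-MSC against Control gave 6 to 9 higher, 9 to 13 lower and a median of -0.31 to 0.0057. BM-MSC against AKI gave 0 to 2 higher, 7 to 11 lower and a median of -0.36 to -0.18, and UC-MSC against AKI gave 4 to 6 higher, 7 to 16 lower and a median of -0.44 to -0.087. UC-MSC against BM-MSC gave 4 to 11 higher, 1 to 5 lower and a median of -0.071 to 0.25, and sham 24 h gave 0 to 1 higher, 14 to 15 lower and a median of -0.22 to -0.12. The IRI and sham difference gave 9 to 10 higher, 15 to 18 lower and a median of -0.37 to -0.14.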
